A study of Mus musculus with 8 samples.

Results

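The regions described here were open in mouse embryonic fibroblasts (MEFs), had no peak at day 5 of reprogramming, had a peak again at day 10 and had none in embryonic stem cells (ESCs). They were chosen on measured peaks. Peaks of the 4 deposited ATAC-seq lists within 400 bp of each other were merged into 101701 regions, and the 1725 with a peak in the MEF and day 10 lists and in neither of the other lists were taken. They made up 1.70% of all merged regions and 4.66% of the 36994 MEF regions without an ESC peak. They are called returning regions below, which names the pattern of listed peaks and nothing more. The other MEF regions without an ESC peak were the 3764 with a peak on both days (kept), the 1507 with a peak at day 5 and none at day 10 (lost), and the 29998 with a peak on neither day (MEF-only).

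Accessible chromatin was measured in 8 libraries, 2 for each of 4 groups, by ATAC-seq, in which a transposase cuts and tags open DNA. MEFs and both reprogramming groups were of the strain C57BL/6J-OG2, which carries a GFP reporter driven by Pou5f1 (Oct4) sequence. The reprogramming groups were MEFs infected with retroviruses for Oct4, Sox2, Klf4 and c-Myc (OSKM) together with a FLAG control vector, sampled at day 5 and day 10 in ESC medium with vitamin C. The MEFs and ESCs carried no transgene factor, the labels gave 1 ESC library the strain C57Bl6J and the other C57BL/6J-OG2, and all groups were labelled wild type for the knockout. The labels placed ESCs on feeder fibroblasts, whereas the study's methods described ESCs on gelatin in 2i/L medium. All samples were bulk populations, so an opening in fewer cells and a weaker opening in every cell cannot be told apart. Of 24 fibroblast transcription factor genes, 23 had a MEF peak within 1 kb of a start site, 19 a day 5 peak, 22 a day 10 peak and 19 an ESC peak. Over all protein-coding genes these shares were 64.5%, 57.2%, 60.0% and 62.3%. Of 23 pluripotency genes the counts were 13, 12, 14 and 21. Start site peaks of macrophage markers were few, with 1 of 5 genes in MEFs, 1 on each reprogramming day and 2 in ESCs. For endothelial markers the count was 2 of 5 in every list, for skeletal muscle markers 0 of 5 in MEFs and on both days and 1 in ESCs, and for neural markers 4, 3, 4 and 4 of 5.

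Fibroblast enhancers are commonly bound by AP-1, a dimer of FOS and JUN family proteins, along with TEAD and RUNX factors. When OSKM are expressed, these factors are known to lose binding at somatic enhancers while OCT4, SOX2 and KLF4 occupy other sites. CTCF is an insulator protein that anchors chromatin loops in most cell types, and KLF factors bind GC-rich sequence in promoters and enhancers.

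To show the kind of sequence these regions hold, 4 windows are printed, each of 200 bp and centred on the broadest MEF peak of a returning region (GRCm38, plus strand, sequence from the reference genome). They belong to the regions with the highest fold enrichment in the weaker of the 2 lists among those with a match to the AP-1, CTCF or KLF motif (the next such region is added for AP-1). Capitals mark the motif match. The AP-1 motif was TGACTCA, the KLF motif was CCACACCC, CCACGCCC, CCCCACCC or CCCCGCCC, and the CTCF motif was its degenerate core consensus. Both strands were searched, and none of these strings contains another.
AP-1 window chr4:32074627-32074826: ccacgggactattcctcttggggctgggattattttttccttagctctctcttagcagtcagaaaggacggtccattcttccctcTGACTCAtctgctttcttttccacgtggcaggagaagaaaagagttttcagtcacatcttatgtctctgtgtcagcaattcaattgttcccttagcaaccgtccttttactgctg
AP-1 window chr13:43684650-43684849: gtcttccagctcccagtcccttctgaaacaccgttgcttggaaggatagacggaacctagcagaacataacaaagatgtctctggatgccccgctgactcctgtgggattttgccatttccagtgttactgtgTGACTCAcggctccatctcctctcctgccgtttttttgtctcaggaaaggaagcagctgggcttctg
CTCF window chr9:121215662-121215861: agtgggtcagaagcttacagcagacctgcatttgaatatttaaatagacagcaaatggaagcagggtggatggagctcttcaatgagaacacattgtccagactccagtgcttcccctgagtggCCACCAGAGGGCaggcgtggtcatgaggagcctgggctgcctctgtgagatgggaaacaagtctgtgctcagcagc
KLF window chr9:102972608-102972807: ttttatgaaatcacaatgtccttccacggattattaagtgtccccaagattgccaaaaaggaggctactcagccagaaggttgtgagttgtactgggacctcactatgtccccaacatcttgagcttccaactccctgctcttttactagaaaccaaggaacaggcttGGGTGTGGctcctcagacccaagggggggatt
The first AP-1 window lay between genes, 22563 bp from the nearest start site, that of the pseudogene Gm11927. Its region had a fold enrichment of 4.27 in MEFs and 4.58 at day 10. The second lay in an intron of the long noncoding RNA gene Gm47728, with 5.57 in MEFs and 4.20 at day 10. The CTCF window lay in an intron of Ulk4, with 3.55 and 3.45. The KLF window lay between genes, 15446 bp from a start site of Slco2a1, a prostaglandin transporter gene, with 5.18 and 4.70. The match in this last window is the reverse complement of CCACACCC. A match is a description of the letters and does not show that a factor was bound.

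The day 10 peaks of returning regions had lower fold enrichment and were narrower than those of kept regions. These values were used by the choice and are given without a test, and each list was called separately. The median fold enrichment of the MEF peak, a ratio over background given by the authors' peak caller, was 3.15 in returning regions (quartiles 2.76 and 3.71). It was 3.47 in kept, 3.41 in lost and 3.17 in MEF-only regions. The day 10 peak had a median of 3.00 in returning regions (quartiles 2.76 and 3.32) and 3.31 in kept regions. The median −log10 q-value at day 10 was 2.56 in returning and 4.03 in kept regions, so the day 10 peaks of returning regions lay nearer to the limit of the list. A q-value of at most 0.01 at day 10 was reached by 1246 of 1725 returning regions (72.2%) and by 90.9% of kept regions. Both the MEF and the day 10 peak reached it in 1124 returning regions (65.2%).

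The median width of the day 10 peaks in returning regions was 411 bp, against 675 bp for the MEF peaks of the same regions. In kept regions the medians were 652 bp at day 10 and 827 bp in MEFs. A day 10 median below the MEF median was therefore not particular to returning regions. The day 10 peak was the narrower in 1337 of 1725 regions (77.5%, 95% Wilson interval 75.5 to 79.4). The MEF and day 10 peaks overlapped by at least 1 bp in 1640 regions (95.1%). Merging within 400 bp already asked that these peaks lie close together, and its part in this value was not tested. By at least 50% of both peaks, the MEF and day 10 peaks overlapped in 803 regions (46.6%). Returning regions held 1726 of 35226 day 10 peaks (4.90%) and 1725 of 56514 MEF peaks (3.05%). Here and below, intervals cover counting error alone, with the region as the unit, and regions are not replicates of a condition.

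**Figure D1:**
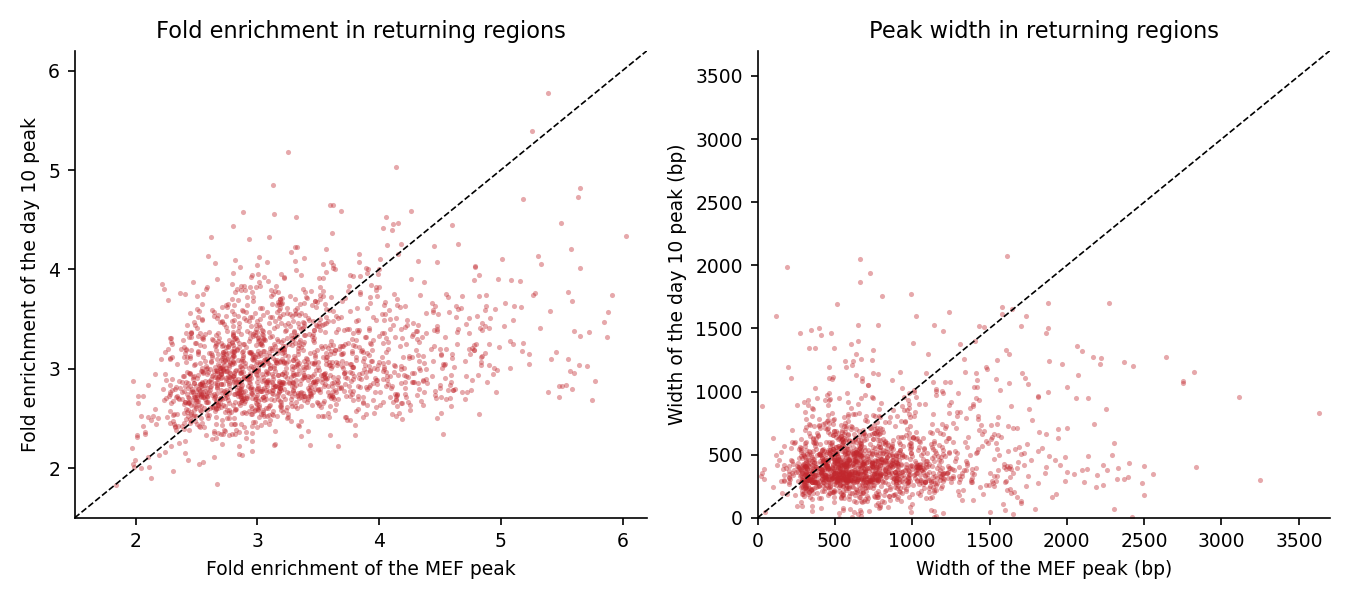
Each point is 1 of the 1725 returning regions: left, the authors' fold enrichment of its day 10 peak (y) against that of its MEF peak (x). Right, the width of the 2 peaks in bp. The dashed line marks equal values, and most points of the width plot lie below it (77.5% of regions have a narrower day 10 peak).

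The absence at day 5 rests on a single list per day. The nearest listed day 5 peak lay at a median of 14981 bp from a returning region (quartiles 7230 and 28744) and at 20896 bp from an MEF-only region. Within 401 to 1000 bp lay a day 5 peak for 4 regions, and within 1001 to 5000 bp for 247. The 3 regions nearest to the limit had day 5 peaks at 594 bp (chr11:29884040-29885391, an intron of Eml6), 755 bp (chr8:128415978-128417310, an intron of Nrp1, a semaphorin and VEGF co-receptor gene) and 832 bp (chr1:55225246-55226991, at a start site of Rftn2). On the other side of the limit, the kept regions with the widest gap between their day 5 peak and a MEF or day 10 peak had gaps of 211 bp (an intron of Rbfox2), 207 bp (an intron of Ikzf2) and 150 bp (an exon of Ddo).

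The names of the listed peaks carry running numbers, which appear to be those of replicate 1 before its peaks were intersected with replicate 2, although this is stated nowhere. Of 47377 numbers, 11238 were missing from the day 5 list (23.7%), against 6626 of 41767 at day 10 (15.9%). A missing number between the listed day 5 peaks to the left and right of a region leaves room for a day 5 peak that was called in one replicate and not listed. No number was missing around 632 of 1723 returning regions that had a listed day 5 peak on both sides (36.7%, 34.4 to 39.0). Among MEF-only regions this share was 52.7% (52.2 to 53.3), a difference of −16.1 percentage points (95% Newcombe interval −18.4 to −13.7). The difference was not smaller where the flanking day 5 peaks were near each other. It was −27.3 points (−31.4 to −23.2) for flanking peaks less than 50 kb apart, −22.2 (−26.4 to −17.8) for 50 to 100 kb and −16.3 (−20.7 to −11.5) for 100 to 200 kb. Returning regions therefore lay more often than MEF-only regions beside missing day 5 peak numbers. The same held for lost regions and the day 10 list, where no number was missing around 48.2% of lost and 62.3% of MEF-only regions. What the missing numbers stood for and where those peaks lay is not known, and their part in the pattern was not tested. The 632 regions with no number missing are used below as a second set.

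**Figure D2:**
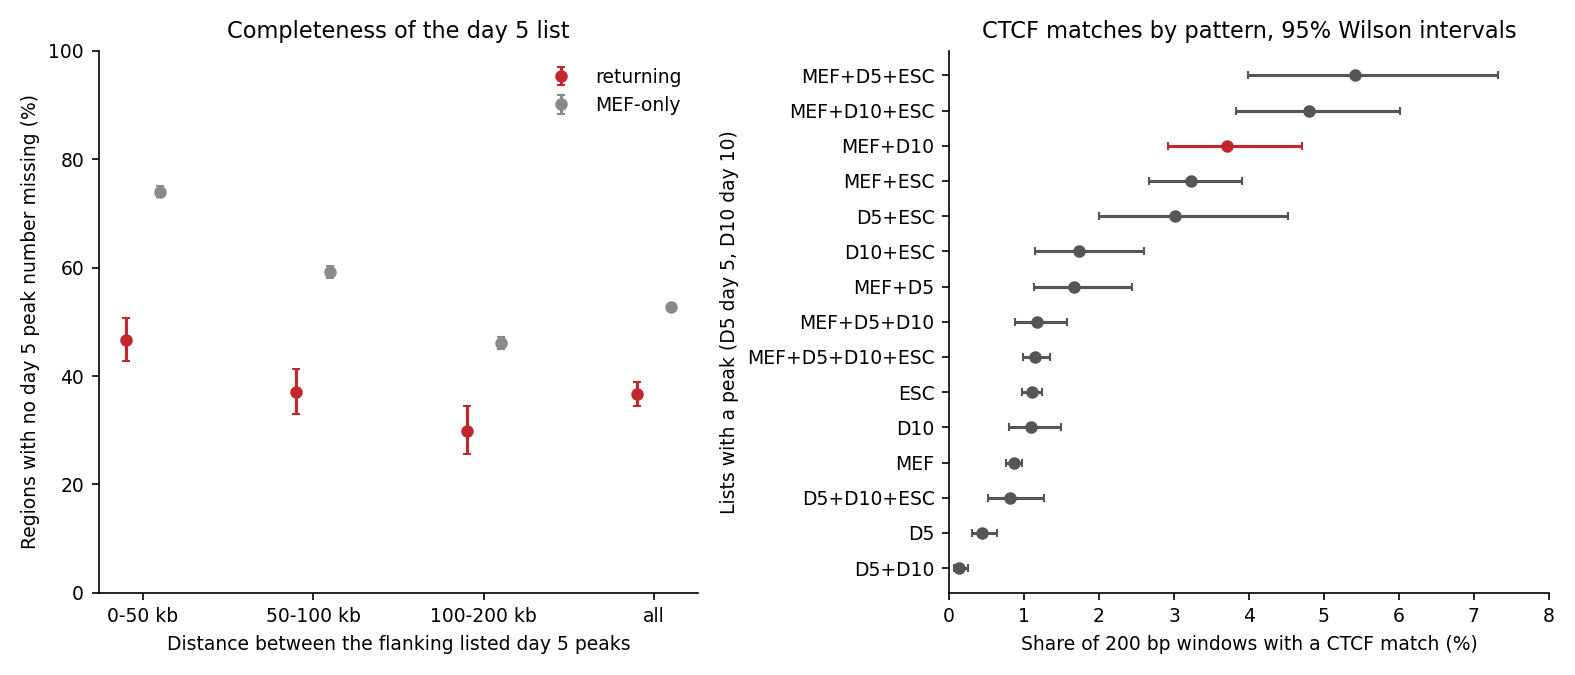
Left, share of returning (red) and MEF-only (grey) regions around which no day 5 peak number was missing, by distance between the flanking listed day 5 peaks, with the 36.7% and 52.7% of all such regions at the right. Right, share of 200 bp windows with a CTCF motif match for each pattern of lists with a peak, the returning pattern (MEF+D10) in red at 3.71%. Windows sit on the widest MEF peak, or on the widest peak of any list where a region has no MEF peak. Bars are 95% Wilson intervals in both.

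Returning regions lay near gene starts more often than lost and MEF-only regions, and about as often as kept regions. Within 5 kb of an annotated transcription start site lay 721 of 1725 (41.8%, 39.5 to 44.1). The share was 40.8% in kept regions, a difference of 0.963 points (−1.83 to 3.78) that does not exclude 0. It was 27.2% in lost regions, 14.6 points lower (the difference ran from 11.3 to 17.8), and 25.0% in MEF-only regions, 16.8 points lower (14.4 to 19.2). Each of these 2 differences had the same sign on 18 of the 19 chromosomes compared. Within 1 kb of a start site the shares were 23.9% in returning, 25.3% in kept, 11.3% in lost and 8.40% in MEF-only regions. In the 632 regions with no day 5 number missing, 43.8% (40.0 to 47.7) lay within 5 kb of a start site. Runs with cut lists were merged and classed anew, so a region also counted as returning when its day 5 or ESC peak was cut. Their returning regions are not the same 1725. With lists cut to equal length, returning regions of that run fell below kept ones by 5.96 points (−9.03 to −2.87). In the higher-scoring 50% of each list, where 1359 regions had the pattern, they exceeded kept ones by 8.82 points (5.67 to 11.9). No order between these 2 classes held across runs.

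Of all 1725 returning regions, 41.2% lay in introns, 3.25% in exons and 31.6% between genes, in each case over 1 kb from a start site. These are shares of all regions of a class, so a class with more regions near start sites has fewer left for the other places. The share between genes was 41.6% in MEF-only regions (a difference of −10.0 points, −12.2 to −7.70) and 40.9% in lost regions (−9.28 points, −12.6 to −5.96). Of the returning regions, 320 lay within 1 kb of a protein-coding start site, with a mean GC content of 57.9%. At 109 of these (34.1%, 29.1 to 39.4) the gene had another start site, over 1 kb away, with a day 5 peak. The share was 32.9% in kept, 42.9% in lost and 52.5% in MEF-only regions near coding starts.

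**Figure D3:**
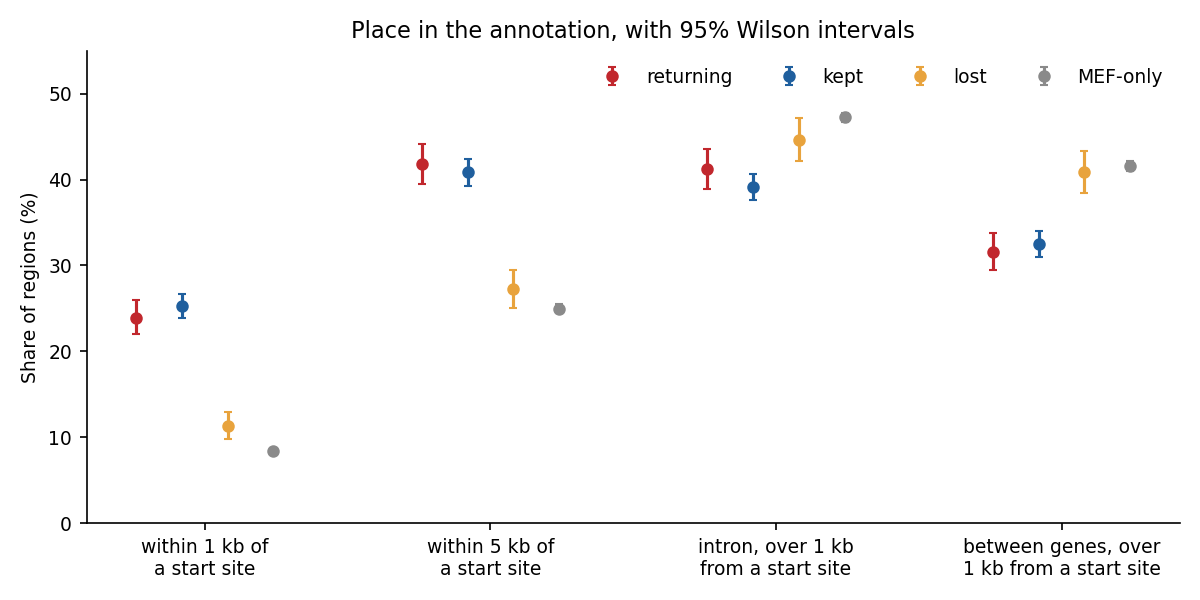
Share of regions (y, in percent) by place in the annotation (x) for returning (red), kept (blue), lost (orange) and MEF-only (grey) regions, with 95% Wilson intervals. Returning and kept regions sit together at 41.8% and 40.8% within 5 kb of a start site, above lost (27.2%) and MEF-only regions (25.0%).

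The returning regions were spread over all autosomes and the X chromosome. Among MEF regions with no ESC peak their share ran from 3.42% to 6.60% over the autosomes, highest on chromosome 11 with 145 regions. On the X it was 2.76% (18 of 651, 1.76 to 4.33), and the Y had none. Few stood close together. Another returning region lay within 10 kb for 63 of 1725 (3.65%) and within 100 kb for 568 (32.9%).

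The AP-1 motif was less frequent in returning regions than in the other MEF regions without an ESC peak. In 200 bp windows on the MEF peak it was found in 236 of 1725 returning regions (13.7%, 12.1 to 15.4), in 19.5% of kept, 24.6% of lost and 24.4% of MEF-only regions. The differences were −5.79 points from kept (−7.81 to −3.69), −10.9 from lost (−13.7 to −8.23) and −10.7 from MEF-only regions (−12.3 to −8.90). Returning regions were lower than MEF-only regions on 19 of 19 chromosomes. The share was still above that of windows 1 kb beyond the ends of the same regions (2.96%), and above that of all merged regions (11.7%). MEF regions with an ESC peak had lower shares, at 12.6% with no peak on either day, 7.50% with one at day 5, 6.70% with one at day 10 and 3.20% with one in all 4 lists. AP-1 matches were concentrated at the MEF peak midpoint, with 7.36% and 7.25% of returning regions in the 100 bp bins to its left and right and 1.62% in the bin centred 950 bp to the left.

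The deficit against kept regions lay away from gene starts. Over 5 kb from a start site, 14.5% of 1004 returning regions held an AP-1 match, against 24.4% of kept regions (−9.89 points, interval below 0). Within 5 kb the shares were 12.5% of 721 returning and 12.3% of kept regions (0.186 points, −2.63 to 3.22). Against MEF-only regions the share was lower in both settings, at 14.5% against 25.0% far from start sites and 12.5% against 22.5% near them. Of the 632 regions with no day 5 number missing, 13.9% (11.4 to 16.8) had the motif. With lists of equal length, the difference from kept regions shrank to −0.990 points (−3.18 to 1.34). In windows below 45% GC the AP-1 difference from kept regions was −7.15 points, and at 45% to 55% GC −6.12, both excluding 0. In windows of 55% GC or more it did not exclude 0 (−1.38 points, −4.68 to 2.20). The AP-1 differences from lost and MEF-only regions excluded 0 in every GC class.

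TEAD and RUNX motifs, of other factors common at fibroblast enhancers, were less frequent in returning than in MEF-only regions. The TEAD motif (ACATTCCA, ACATTCCT, GCATTCCA or GCATTCCT) was found in 5.86% of returning regions, against 9.07% of MEF-only regions (−3.21 points, −4.28 to −1.96), and the differences from kept and lost regions did not exclude 0. In windows of 45% to 55% GC the TEAD difference from MEF-only regions was −3.45 points (−4.93 to −1.58). It did not exclude 0 below 45% GC (−1.70 points, −3.94 to 1.24) or at 55% or more (−1.52 points, −3.32 to 0.866). Over whole regions in place of windows the TEAD difference from MEF-only regions was −1.05 points (−2.98 to 1.00). Whole regions were of unequal length, with median widths of 790 bp in returning, 1023 bp in kept and 570 bp in MEF-only regions. A longer sequence has more room for a match, and the part of length was not tested. The RUNX motif (TGTGGTTA or TGTGGTTT) was found in 2.61% of returning regions, near the 2.23% of their flanking windows. Kept regions had 3.83%, lost 5.91% and MEF-only regions 4.81%, each difference excluding 0. The RUNX difference from kept regions, −1.22 points, no longer excluded 0 in the higher-scoring 50% of each list (−0.859), with lists of equal length (−0.825), at the stricter q-value in MEFs and at day 10 (−1.07), on either side of 5 kb from a start site (−1.38 and −0.938) and with no day 5 number missing (−1.45). The RUNX difference from MEF-only regions was −1.23 points (−2.28 to 0.238) in windows of 45% to 55% GC and −1.81 points (−3.29 to 0.458) below 45%. At least 1 of the AP-1, TEAD and RUNX motifs was present in 352 returning regions (20.4%, 18.6 to 22.4) and in 34.8% of MEF-only regions (34.3 to 35.4). All merged regions held the TEAD motif at 6.90% and the RUNX motif at 3.13%.

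The CTCF motif was rare but more frequent in returning regions. It was found in 64 of 1725 windows (3.71%, 2.92 to 4.71), against 1.17% in kept, 1.66% in lost and 0.863% in MEF-only regions. The differences were 2.54 points (1.65 to 3.58), 2.05 points (0.939 to 3.18) and 2.85 points (2.04 to 3.85). Flanking windows of returning regions held it at 0.116%, and all merged regions at 1.15%. Only 2 returning regions held both an AP-1 and a CTCF match. Among the 632 regions with no day 5 number missing the share was 3.64% (2.44 to 5.40). The excess was not particular to the returning pattern. Regions with a peak in MEFs, at day 5 and in ESCs held the motif at 5.42%, those in MEFs, at day 10 and in ESCs at 4.80%, those in MEFs and ESCs at 3.23%, and those at day 5 and in ESCs at 3.01%. The excess was also absent in the higher-scoring 50% of each list, where the share among regions classed anew was 0.294% (0.115 to 0.754). There the differences were −0.233 points from kept (−0.709 to 0.286) and −0.137 from MEF-only regions (−0.354 to 0.332). The difference from lost regions was reversed, at −1.71 points (−3.12 to −0.765), and excluded 0. Mean GC content of the windows was 50.8% in returning, 48.7% in kept, 44.8% in lost and 44.8% in MEF-only regions. In windows of 45% to 55% GC the CTCF difference was 3.09 points from kept and 3.26 points from MEF-only regions, both excluding 0, and 1.78 points from lost regions (−0.324 to 3.74). In windows of 55% GC or more, the difference did not exclude 0 from kept (1.59 points, −0.0677 to 3.67), lost (−0.402) or MEF-only regions (1.05 points, −0.360 to 3.09).

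**Figure D4:**
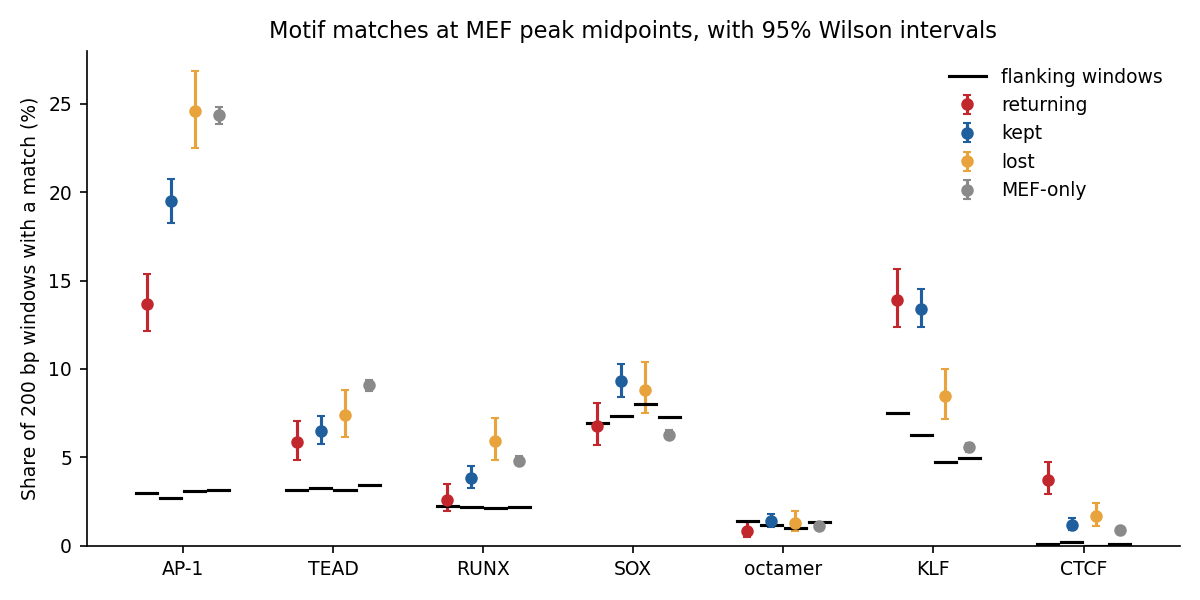
Share of 200 bp windows on the MEF peak with a match to each motif (y, in percent), for returning (red), kept (blue), lost (orange) and MEF-only (grey) regions, with 95% Wilson intervals and, as black lines, the share in flanking windows of the same regions. Returning regions are lowest for AP-1 (13.7%) and highest for CTCF (3.71%).

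The share of KLF motifs in returning regions was near that of kept regions and above that of MEF-only regions. It was also above that of lost regions, but within no class of GC content did that difference exclude 0. KLF motifs were found in 240 of 1725 returning regions (13.9%, 12.4 to 15.6) and in 13.4% of kept regions, with a difference of 0.496 points (−1.42 to 2.51). Lost regions had 8.49% (5.42 points lower, 3.25 to 7.57) and MEF-only regions 5.57% (8.34 points lower, 6.77 to 10.1, the same sign on 19 of 19 chromosomes). KLF letters are GC-rich, and the flanking windows of returning regions already held them at 7.48%. All merged regions had 11.0%. Within windows of 45% to 55% GC the difference from lost regions was 0.743 points (−2.81 to 4.11), whereas that from MEF-only regions was 4.65 points and excluded 0. From lost regions it was 0.208 points (−2.07 to 2.87) below 45% GC and 4.76 points (−3.09 to 11.7) at 55% or more. From MEF-only regions it was 2.31 and 7.33 points in these classes, both excluding 0. In the 632 regions with no day 5 number missing, 14.9% held the motif. Over 5 kb from a start site, returning regions exceeded kept regions by 2.92 points (0.592 to 5.43), and over whole regions in place of windows they fell below them by 5.91 points (−8.72 to −3.08). Kept regions were the wider, with a median of 1023 bp against 790 bp, so the whole regions compared were of unequal length.

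Motifs of SOX2 and OCT4 did not stand above the flanking windows. The SOX motif (CCATTGT or CCTTTGT) was found in 6.78% of returning windows, at the level of their flanks (6.93%) and below kept regions (9.30%, −2.52 points, −3.98 to −0.955). The octamer ATGCAAAT, bound by OCT4, was found in 14 returning regions (0.812%) and 1.39% of their flanking windows, with differences from the 3 other classes that did not exclude 0. Over whole regions in place of windows, the octamer differed by −4.18 points from kept (−5.52 to −2.75) and by 1.20 from MEF-only regions (0.242 to 2.35), and SOX by 8.62 points from MEF-only regions (6.50 to 10.8). These whole regions were of unequal length, widest in kept and narrowest in MEF-only regions, as given above. With lists of equal length the SOX difference from kept regions was −0.805 points (−2.30 to 0.862). All merged regions held these at 10.0% and 2.15%. The E-box CAGCTG was found in 13.7% of returning windows and 11.5% of all regions. Of the other motifs searched, that of C/EBP factors (TTGCNNAA) was found in 9.28% of returning windows, the cAMP response element TGACGTCA in 0.580%, the ETS motif CCGGAAGT in 0.638%, that of SRF in 0.754%, that of ESRRB (TCAAGGTCA) in 0.522% and that of NFI in 0.116%. In all merged regions these shares were 8.71%, 0.319%, 0.572%, 1.02%, 0.666% and 0.0393%.

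**Figure D5:**
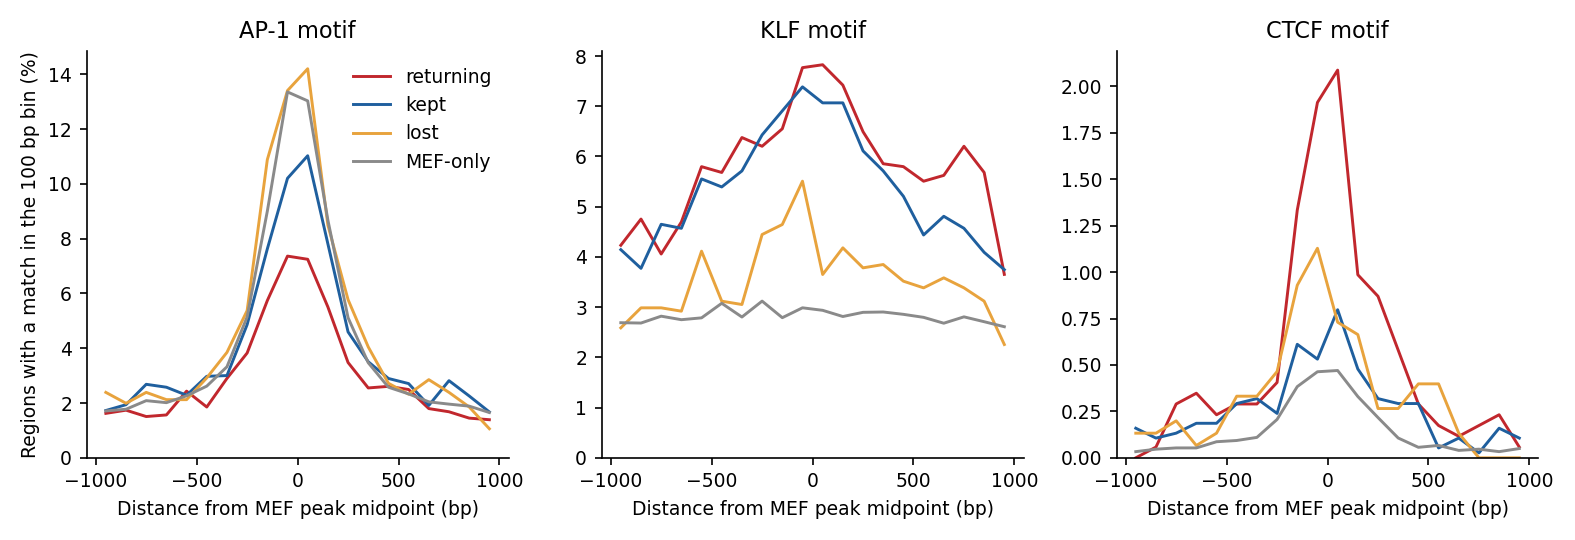
Share of regions with a match in each 100 bp bin (y, in percent) by distance from the MEF peak midpoint (x, bp) for the AP-1, KLF and CTCF motifs in the 4 classes of MEF regions. In returning regions (red) the AP-1 curve peaks lowest of the 4, at 7.36%, and the CTCF curve highest, at 2.09%.

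The 10 strongest returning regions over 5 kb from a start site and the 5 strongest within 5 kb were ranked by the lower of their MEF and day 10 fold enrichments. The highest was chr3:68676913-68677496, between genes, 13148 bp from a start site of Il12a, which encodes a subunit of interleukin-12. Its fold enrichment was 5.39 in MEFs and 5.78 at day 10, and the nearest day 5 peak lay 93350 bp away. The next was chr3:113952417-113953393, 77147 bp from a start site of the fibrillar collagen gene Col11a1, with 5.26 and 5.39. A region at chr16:46566117-46566765, with 5.64 and 4.72, had as its nearest coding gene Nectin3, which encodes an adhesion protein, 67592 bp away. Introns of Anxa4 (4.60 and 4.44), Ece1 (4.65 and 4.25), which encodes endothelin-converting enzyme, and Slc22a23 (4.16 and 4.16) held others. Among regions within 5 kb of a start site, the strongest were at a start site of the pseudogene Gm29741 (5.65 and 4.82), at Rtl8b on the X (5.49 and 4.47), in the Gm47728 intron printed above, at Phf10, a chromatin remodelling complex subunit gene (4.18 and 4.25), and at Trmt10b (4.11 and 4.40). The region in which a MEF and a day 10 peak shared most bp was chr5:31093415-31095730 at a start site of Slc30a3, a zinc transporter gene, with 1662 shared bp.

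Listed genes had returning regions within 1 kb of an annotated transcript start site of their own in 8 cases. Some of these start sites lie inside the gene, away from the gene start. Among fibroblast transcription factors these were Zeb2, a repressor that drives the mesenchymal state (chr2:45116266-45117516, fold enrichment 2.38 in MEFs and 2.70 at day 10), and Osr1 (chr12:9574228-9575012, 2.59 and 2.67). The Osr1 region lay inside the gene, which is annotated from 9570116 to 9581500. Eln, which encodes elastin, had one 408 bp from its start (2.94 and 2.93), and the smooth muscle actin gene Actg2 had one with 2.47 and 3.88. Smad3, which transduces TGF-β signals, had one with 3.34 and 3.27, which lay 90484 bp from the gene start, inside the gene. Cdkn1c, an imprinted cell cycle inhibitor gene, had one with 2.44 and 2.39 that also covers the antisense gene Gm44732. The keratin gene Krt8 had one with 2.32 and 2.41 whose MEF and day 10 peaks shared 2 bp, with a day 5 peak 1458 bp away. The orphan nuclear receptor gene Nr5a2 had one with 2.95 and 3.02, with the nearest day 5 peak 166065 bp away and an ESC peak at 3423 bp. This Nr5a2 region lay 11079 bp from the gene start, inside the gene. All 8 had a fold enrichment under 4 in both lists.

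Over all protein-coding genes, 3214 of 21938 (14.7%) had a returning region within 50 kb. The counts below are read beside that share and beside gene length, since a long gene spans more DNA, and they were not tested. Of 24 fibroblast transcription factor genes 9 had one (37.5%), with a median gene length of 31573 bp against 17425 bp for all coding genes. They were Foxp1 and Nfib, with 2 regions each, and Zeb2, Runx1, Runx2, Twist2, Osr1, Foxc2 and Foxf1 with 1 each. Of the same 24 genes, 12 had a kept region and 22 an MEF-only region within that distance, against 25.6% and 68.4% of all coding genes. Foxc2 and Foxf1 are neighbours and shared 1 region. AP-1 subunit genes had a returning region in 5 of 10, namely Fos and Fosl1 with 2 regions each and Fosb, Jun and Batf3 with 1 each. Of the same 10 genes, 5 had a kept, 4 a lost and 8 an MEF-only region. The 2 regions around Fos lay 36809 bp upstream (3.10 in MEFs, 3.52 at day 10) and 23115 bp from its start on the downstream side (3.72 and 2.51). The upstream one was within 1 kb of another start site. The window of the Batf3 region, 21880 bp upstream of its start, held a CTCF match.

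Matrix genes had a returning region in 5 of 34 cases (14.7%), the share of all coding genes, while 33 of the 34 had an MEF-only region within 50 kb (68.4% of all coding genes did). The 5 were Fbn1, Col6a3, Eln, Col4a1 and Mmp2. Fbn1, which encodes the microfibril protein fibrillin-1, had 5 returning regions, 0 kept, 0 lost and 11 MEF-only. Within 50 kb of the gene lay 18 MEF, 8 day 5, 11 day 10 and 5 ESC peaks. Of its 5 regions, 3 lay in introns, with fold enrichments of 3.45 in MEFs and 3.64 at day 10, 2.94 and 2.86, and 2.65 and 2.73. The other 2 lay downstream, with 2.81 and 2.51, and 3.20 and 2.58. None of the 5 windows held any of the 14 motifs, and the nearest day 5 peaks lay between 7613 and 19071 bp away.

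Signalling and cytoskeletal genes followed. TGF-β pathway genes had a returning region in 6 of 18 (33.3%, median gene length 66878 bp), receptor tyrosine kinases in 5 of 15 (33.3%, 138456 bp), actin and contractile genes in 6 of 23 (26.1%), cell cycle and senescence genes in 3 of 14 (21.4%) and TEAD and YAP pathway genes in 2 of 12 (16.7%). In the same order, 55.6%, 66.7%, 52.2%, 57.1% and 58.3% had a kept region, against 25.6% of all coding genes. An MEF-only region was near 100%, 93.3%, 87.0%, 78.6% and 83.3%, against 68.4%. High shares were therefore not particular to returning regions. The inhibitory Smad6 had 2, of which the stronger (4.14 in MEFs, 3.51 at day 10) held a KLF match. This region lay downstream of Smad6, 93570 bp from its start, and within 1 kb of another start site. Ror2, a WNT receptor, had 2 intronic regions, the stronger with 4.09 and 3.40. Mdm2, whose protein degrades p53, had 1 at 6802 bp upstream (4.06 and 2.82). Wwtr1, which encodes TAZ, had 1 in an intron (3.65 and 2.76).

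Epithelial genes had a returning region in 6 of 12 (50.0%), a kept region in 3 (25.0%) and a lost region in 0, against 25.6% and 8.83% of all coding genes for the last 2, with a median gene length of 7821 bp. An MEF-only region was near 8 of the 12 (66.7%), against 68.4% of all coding genes. The 6 genes with a returning region were not independent. Cldn3 and Cldn4 shared the region 12054 bp upstream of Cldn4 (3.52 in MEFs and 3.74 at day 10, with an AP-1 match), and Krt8 and Krt18 lie side by side and shared theirs. Epcam had 1 downstream (3.47 and 2.95, with an AP-1 and an ESRRB match), 63359 bp from its start and in an intron of another gene. Cldn7 had 1 downstream (2.11 and 2.11), 35596 bp from its start and within 1 kb of another start site. Pluripotency genes had a returning region in 3 of 23 (13.0%), namely Klf2, Sall4 and Nr5a2. A kept region was near 17.4% and an MEF-only region near 52.2% of these 23, against 25.6% and 68.4% of all coding genes. The 2 regions upstream of Klf2 had 3.39 and 4.20 in MEFs and 2.72 and 3.01 at day 10. Markers of other cell types had a returning region in 0 of 5 macrophage, 1 of 5 endothelial (Pecam1), 0 of 5 skeletal muscle and 0 of 5 neural genes.

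The protein-coding genes with most returning regions were Gm20388 with 13, Arhgap26 with 6, Fbn1 with 5, and Zfr2 and Fgfr2 with 4 each. Sipa1l3, Ece1, Nhsl1 and Fgf1 also had 4, of which Sipa1l3 and Ece1 had 3 kept regions each, Nhsl1 had 1 and Fgf1 had 0. Fgf1 lies within the annotated span of Arhgap26 (chr18:38676718-39110534), so its 4 regions are among the 6 of Arhgap26. The annotated span of Gm20388 is 4434882 bp and that of Fgfr2 2960900 bp, so both counts cover many other genes. Zfr2 spans 18969 bp and had 0 kept, 0 lost and 1 MEF-only region beside its 4, with 9 MEF, 4 day 5 and 8 day 10 peaks within 50 kb. Arhgap26 had 0 kept, 0 lost and 15 MEF-only regions beside its 6, with 25 MEF, 6 day 5, 17 day 10 and 12 ESC peaks. Fgfr2 had 8 kept regions, with 67 day 5 and 64 day 10 peaks, and Gm20388 had 14 kept regions, with 89 and 122. The genes were picked for their number of returning regions, each of which adds a day 10 peak and no day 5 peak, so nothing is read from these counts.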

How the data were processed

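ATAC-seq was done on 8 libraries, 2 per group, and the authors deposited 1 peak list per group. Per the labels and the study's methods, reads were mapped to mm10 with bowtie2 (Bowtie2 2.2.0 in the submitters' processing notes), filtered on mapping quality and uniqueness, and mitochondrial reads were dropped. The peak caller is not given in the sources used here. For every peak the authors deposited a score (the −log10 q-value times 10, truncated), a ratio over background called fold enrichment, and −log10 p- and q-values. Peak names carry replicate 1, and the lists appear to hold those stretches of replicate 1 peaks that replicate 2 shares, so the values may describe a wider peak than the interval. Read depth is unknown, and a longer list may reflect deeper libraries. No column belonged to another series (0 columns).

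Peaks within 400 bp were merged and classed by the lists with a peak. Build mm10 was matched to GRCm38 by chromosome lengths (0 peaks past an end). Start sites, introns and exons came from GENCODE mouse release 21. In total 14 motifs were searched on both strands in 200 bp windows on the widest MEF peak, and in windows 1 kb beyond each end of a region. Regions without a MEF peak had the window on their widest peak in any list. Shares over all merged regions therefore mix these 2 placements. Shares carry 95% Wilson intervals and differences 95% Newcombe intervals, with signs per chromosome for the 19 chromosomes with at least 20 regions per class. With 1 list per group no p-value was computed. Scripts ran in Python 3.11.15 with numpy 2.4.6 and were tested on simulated data.

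Genes and regions were named by a rule: regions within 1 kb of a start site of a listed gene, up to 4 genes per list with most regions within 50 kb, the strongest 10 distal and 5 near regions by the lower fold enrichment, the 5 coding genes with most regions, the region with most shared bp, 3 regions on each side of the 400 bp limit, and for sequences the strongest region with each motif, none holding UTR bases. No sequence was taken from chromosome 18. Other members of a list were named where few, after their values were seen. The members, the 14 gene lists and the motifs were chosen with earlier results of these data known. The set with no missing day 5 peak number and the GC classes were added after seeing the data.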

Additional observations from a re-analysis of the deposited data

How the results depend on the processing

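The count of 1725 returning regions became 1124 with a q-value of at most 0.01 in MEFs and at day 10, 803 with peaks overlapping by 50% of both and 632 with no day 5 peak number missing. Cut lists (a q-value of at most 0.01 in all, the higher-scoring 50% of each, or equal length) were merged and classed anew. A region then also counted as returning where its day 5 or ESC peak was cut, so these sets differ from the 1725. The first 2 of these runs gave 1571 and 1359 returning regions. For the cut lists, in that order, the share within 5 kb of a start site was 47.2%, 75.3% and 48.0%. With 50% overlap this share was 45.7%. It was 23.9% and 93.2% with windows of 1 kb and 50 kb, and 31.1% with protein-coding start sites. Its difference from kept regions, not excluding 0 at first, was 8.82 points in the higher-scoring 50%, 4.87 with 50% overlap, 2.86 with 50 kb, −1.32 with 1 kb and −5.96 with equal lists. In the higher-scoring 50%, CTCF differences were −0.233, −1.71 and −0.137 points from kept, lost and MEF-only regions. Of these, only the reversed difference from lost regions excluded 0. The KLF difference from kept regions was 2.91 in that run. With equal lists, AP-1 and CTCF differed from kept regions by −0.990 and 0.645 points, CTCF from lost regions by 0.0244, KLF from kept regions by −3.25 and TEAD from kept regions by 0.540. KLF minus kept was −5.91 over whole regions, which were of unequal length, 2.92 over 5 kb from a start site and −3.08 within 5 kb. Within 5 kb, AP-1 minus kept was 0.186 and CTCF minus lost 1.87. In windows of 45% to 55% GC, CTCF and KLF exceeded lost regions by 1.78 and 0.743 points. The cause of these changes was not tested.

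Differences that did not exclude 0 at first changed sign for SOX against MEF-only regions (−0.0493 at the stricter q-value in MEFs and at day 10, −0.0504 with 50% overlap, −0.0420 within 5 kb of a start site), and for the octamer against MEF-only regions (0.0913 in 400 bp windows, 1.20 over whole regions, 0.0955 with no number missing, 0.117 in the GC class) and against lost regions (0.0459, 0.00504 with no number missing and 0.692 in the GC class). TEAD minus lost was 0.00981 within 5 kb of a start site and 0.307 in the GC class, and RUNX minus kept was 0.144 there. Genes with a returning region made up 5.38% and 22.8% with gene windows of 5 kb and 100 kb, and the MEF and day 10 peaks overlapped by 50% of both in 46.6%. The differences of AP-1 and start sites from lost and MEF-only regions, and of KLF from MEF-only regions, kept their sign and excluded 0 in every alternative run.

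No paired analysis was possible because each group has 1 list made from both replicates, and leaving out a replicate was not run for the same reason. Read depth is unknown, which limits every absence of a peak.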
